A study of Drosophila melanogaster with 13 samples.

Results

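The Mix assimilated flies of the first selection experiment were set against the ancestral flies they came from (P0), site by site, in pools of whole adult females. All sites that the deposited table lists for this pair of pools were taken as members, 1231203 sites of the 1679136 that the 9 tables of the study hold together. Mix is an outbred population of wild type *Drosophila melanogaster* made by mixing the inbred lines D208, D437, D820 and D907 of the Drosophila Genetic Reference Panel, and P0 is the generation taken after a few generations of free mating. Pupae of the selected line were heat-shocked over several generations and adults with ectopic wing veins (EV) were bred. Once EV appeared without the shock, selection went on under normal conditions, and these flies are the assimilated flies. Control flies came from the same P0 and were kept under normal conditions without selection, and nonassimilated flies were selected for EV without heat shock from the control line. A second experiment was started later from the same Mix population, with a P0 of its own. The comparison asks which ancestral alleles shifted while EV became independent of the shock. Each population was sequenced as 1 pool of 100 females, so all tests below compare pools of DNA and not replicate populations.

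Drift and selection act on the same standing variation in such a design. A founder chromosome that rises carries its neighbouring alleles with it, so that sites fix together in long blocks where recombination has had few generations to break them. The pattern of wing veins is set by a few conserved pathways: EGFR and Notch signaling promote and restrict vein fate, the BMP ligands dpp and gbb maintain it, Hedgehog and Wnt signals place the vein borders, and selector genes such as *bs*, *net* and *kn* keep vein and intervein cells apart. Heat shock proteins buffer misfolded protein, and Hsp83, the fly Hsp90, is the chaperone best known for masking variation in form.

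The median site was read 84 times in P0 (5th to 95th percentile, 45 to 115 reads) and 85 times in assimilated flies (45 to 114 reads). Of the members, 1212875 sites (98.51%) lay on the arms X, 2L, 2R, 3L, 3R and 4, and 18328 lay on other sequences of the dm6 assembly. In P0, 977307 of the sites on the arms had a minor allele frequency of at least 0.1 and are called segregating here. Another 73441 sites had a rarer minor allele, and 162114 showed a single allele in P0. The control table listed the same P0 reads at 100% of the 1185381 sites that both tables hold, so changes in assimilated and in control flies are measured from the same ancestral pool and share its sampling error.

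Assimilated flies differed from P0 at 174593 sites (14.2% of the table) by Fisher's exact test on the reads, at a Bonferroni-adjusted p below 1e-05. The alternative (non-reference) allele rose at 117116 of these sites (67.08%) and fell at 57477. The median change at changed sites was 0.5424 in allele frequency, and 58.3% of the changed sites ended fixed, which here means a frequency from 0 to 0.02 or from 0.98 up. The test reached only large shifts. At the median depth, an allele at 0.5 in P0 had to fall to 4.706% or rise to 95.29% to pass, and an allele at 0.25 could be lost altogether without passing (adjusted p = 0.123, Fisher's exact test), while it passed on rising to 77.65%. Without the correction, 825358 sites had a p below 0.05.

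More sites set assimilated flies apart from control flies than from P0. Of the 1185381 sites in both tables, 210069 (17.7%) differed between assimilated and control flies at the same threshold. By arm, the share was 26.52% on 2R, 24.82% on 2L, 21.47% on X, 15.68% on 3L, 6.308% on 3R and 1.24% on arm 4. On 3R alone the order was reversed, with 17957 of these sites changed against control flies and 23603 against P0. Both comparisons contain the assimilated pool, and neither has a second pool per group.

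Much of the segregating variation was gone from assimilated flies. Of the 977307 segregating sites, 371225 (38%) were fixed in the assimilated pool. The same measure gave 6.972% in control flies, 48.2% in nonassimilated flies and 58.78% in assimilated flies of the second experiment, each over the sites of its own table. From the same P0 pool, 1099741 segregating sites were listed for control flies, 977307 for assimilated flies and 944999 for nonassimilated flies. Which sites were listed thus varied with the derived pool, and unevenly by arm. On 2L, 190482 were listed for assimilated and 229576 for control flies, and on 3R 239596 and 252838. Shares of alleles that rose, were fixed or were lost cover listed sites only, and the fate of unlisted sites is unknown. The mean absolute frequency change was 0.275 (SD 0.1804 over sites) in assimilated flies and 0.1324 (SD 0.1035) in control flies, against 0.3145 in nonassimilated flies and 0.3769 in the second experiment. Expected heterozygosity, the chance that a pair of alleles drawn from the pool differ, was kept at 54.01% of its P0 value in assimilated flies and at 88.66% in control flies.

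The loss was uneven between arms and fell mostly on the second chromosome. On 2R, 63.58% of segregating sites were fixed, on 2L 52.44%, on X 30.82%, on 3L 29.48%, on 3R 21.65% and on arm 4 13.29%. The control pool lay between 4.014% and 8.783% on every arm. Heterozygosity fell to 31.88% of P0 on 2R and to 37.62% on 2L, whereas 62.0% was kept on 3L, 65.87% on X, 66.22% on 3R and 90.59% on arm 4. The other selected pools had another order of arms: nonassimilated flies kept the least on X (34.86%) and 2R (40.53%), and assimilated flies of the second experiment kept the least on arm 4 (8.422%), 3L (17.04%) and 3R (23.45%). The only other assimilated Mix pool among the samples is that of the second experiment. Its line began from another, later P0 and was selected strongly from the start, and no test of the order of arms was made.

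**Figure D1:**
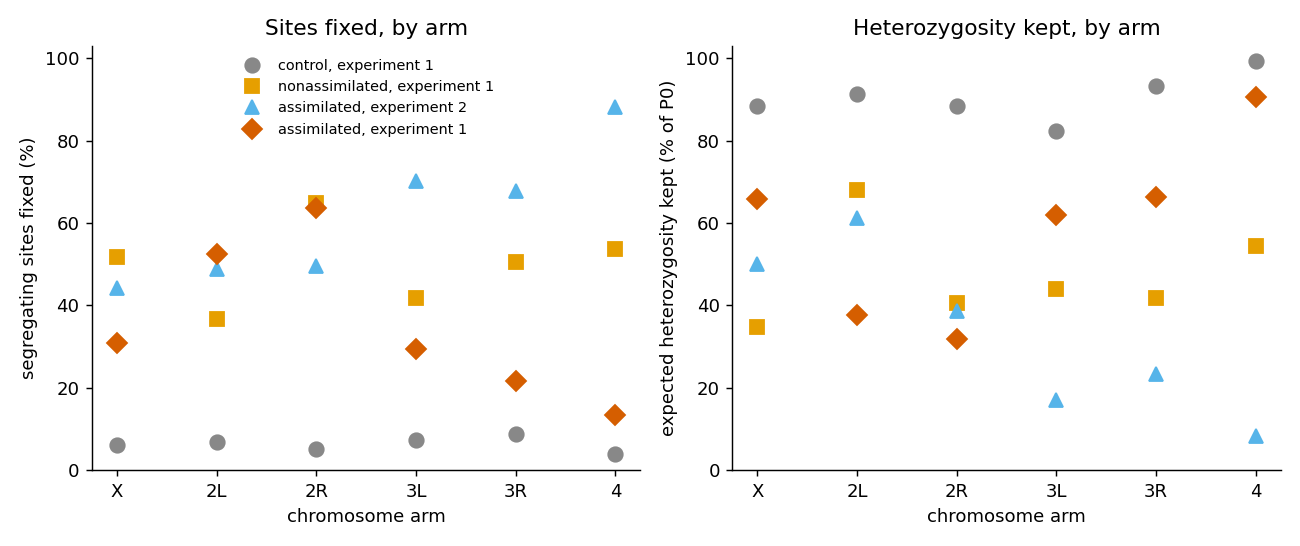
Percent of segregating sites fixed (left) and percent of the P0 expected heterozygosity kept (right) on each chromosome arm, with 1 point per pool. The assimilated pool of experiment 1 (diamonds) is highest in fixation on 2R and 2L (63.58% and 52.44%) and lowest on arm 4 (13.29%), while the control pool (circles) stays below 9% of sites fixed on all arms.

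The amount of change and the amount of fixation did not rank the arms alike. The mean absolute change was highest on 2L (0.3414), then on X (0.3037) and 2R (0.2915), and lower on 3R (0.2363), 3L (0.2333) and arm 4 (0.1515). On X, 31.93% of the fixed sites were fixed for the allele that had been the rarer one in P0, on 2L 23.5% and on 2R 13.89%. On 3L and 3R the share was 2.673% and 2.817%, so fixation there was almost wholly a loss of the rarer allele. The mean P0 frequency of the allele that became fixed was 58.88% (SD 20.36 over sites) on X, 67.49% on 2L, 70.1% on 2R, 72.48% on 3L and 73.99% on 3R.

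The fate of an allele followed its starting frequency. Alleles at 0.1 to 0.2 in P0 were lost at 67.12% of 186717 sites in assimilated flies and fixed at 1.41%. From 0.2 to 0.3 the shares were 29.54% lost and 4.058% fixed, from 0.3 to 0.4 they were 22.37% and 5.068%, and from 0.4 to 0.5 they were 18.81% and 12.39%. In control flies, for which 225597 sites at 0.1 to 0.2 were listed, 21.51% of these alleles were lost. In no class did more than 0.1768% of the rarer alleles become fixed in control flies. The mean frequency moved little in the class at 0.1 to 0.2, from 14.82% to 13.68%, and rose in the class at 0.2 to 0.3, from 25.25% to 34.84%.

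**Figure D2:**
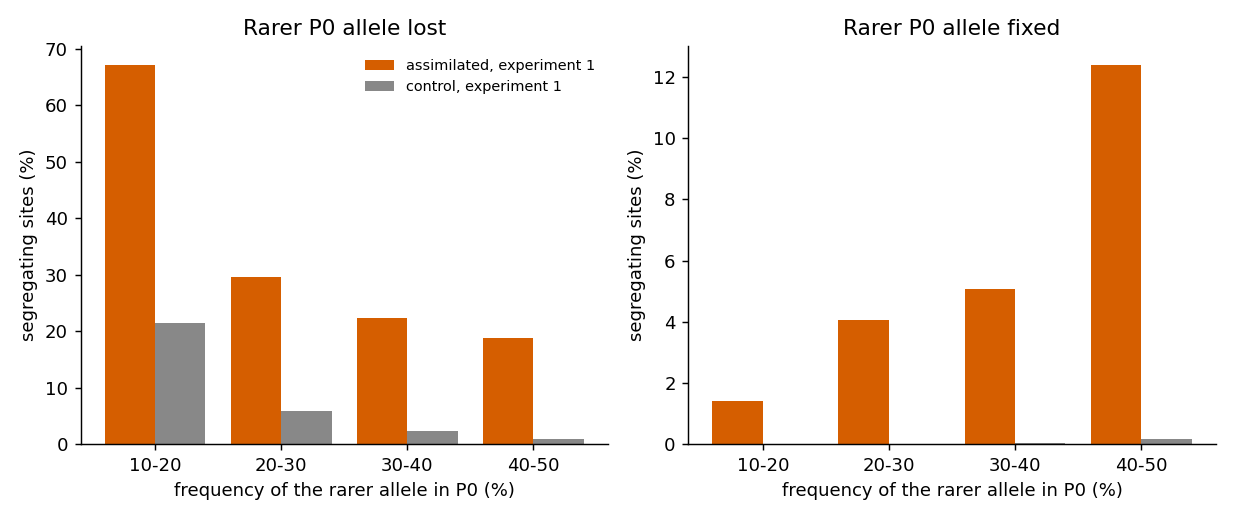
Percent of segregating sites at which the allele that was rarer in P0 was lost (left) or fixed (right), by its P0 frequency in percent, in the assimilated and the control pool of experiment 1. Loss falls from 67.12% to 18.81% with the starting frequency in assimilated flies, and fixation rises from 1.41% to 12.39%.

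Change was measured in 1339 windows of 100 kb that held at least 20 segregating sites. Assimilated flies had at least 90% of the segregating sites fixed in 139 windows (10.4%) and at most 10% fixed in 131 windows. No control window reached 90%, while 257 of 1340 nonassimilated windows and 561 of 1301 windows of the second experiment did. The fixed windows of assimilated flies numbered 77 on 2R, 33 on 2L, 27 on X, 1 on 3L, 1 on 3R and none on arm 4. The mean absolute change of a window had a median of 0.272 and a range of 0.07739 to 0.5592, and 280 windows (20.91%) were above the highest control window, at 0.3538.

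**Figure D3:**
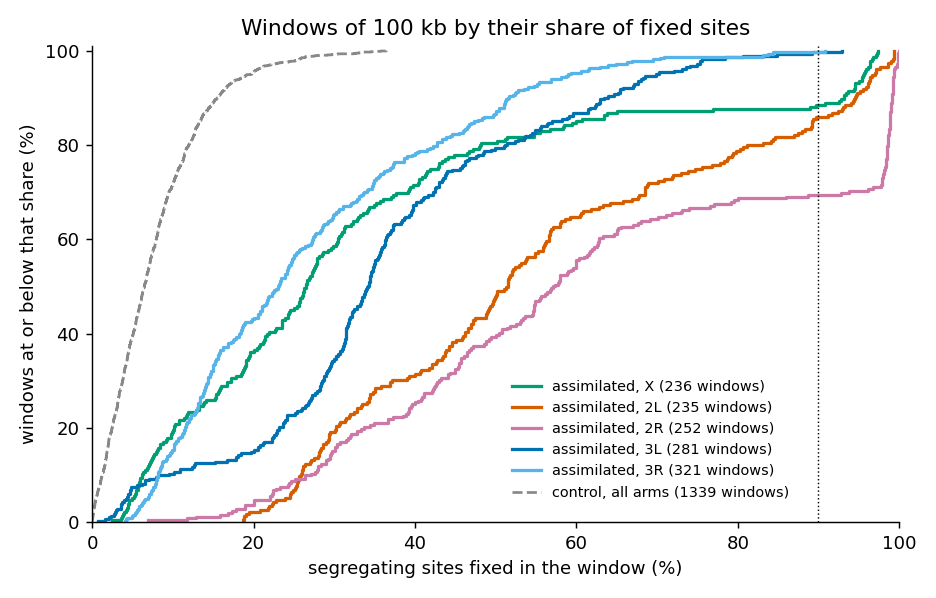
Share of 100-kb windows (vertical axis, percent) at or below a given percent of fixed segregating sites (horizontal axis), for the 5 large arms in assimilated flies and for all arms in control flies. The dotted line marks 90%, which 77 windows on 2R, 33 on 2L, 27 on X, 1 on 3L and 1 on 3R reached and no control window did.

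The windows that changed most on an arm were mostly not the windows with the most fixation. On X, the window at 11.5 to 11.6 Mb had the largest mean change of all (0.5592, SD 0.2542 over 249 sites, 0.2226 in control flies), with 90.76% of its sites fixed, and that at 11.8 to 11.9 Mb followed (0.5567 over 488 sites, 97.13% fixed). On 2L the leading windows lay at 20.9 to 21.0 Mb (0.5282, 44.16% fixed) and 15.2 to 15.3 Mb (0.5202, 36.86% fixed). On 2R they lay at 7.5 to 7.6 Mb (0.5216, 53.69% fixed) and 8.3 to 8.4 Mb (0.5154, 44.92% fixed). Control flies had changed by 0.07013 to 0.1339 in these 4 autosomal windows.

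Chromosome 3 moved less at its peaks. On 3L, the windows at 6.3 to 6.4 Mb and 6.1 to 6.2 Mb changed by 0.376 and 0.358, and the first of them holds the odorant receptor genes *Or65a*, *Or65b* and *Or65c*. Control flies had already changed by 0.1723 and 0.1819 in them. On 3R, the window at 27.8 to 27.9 Mb changed by 0.4123 (0.08191 in control flies), and that at 31.9 to 32.0 Mb by 0.3962. In the latter, 33.83% of segregating sites had changed against P0 and 3.219% of the sites in both tables had changed against control flies. Arm 4 led with 0.2073 and 0.198 and had no changed site in either window.

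Fixed windows stood next to each other in 6 runs that covered 13.4 Mb in all. A run is at least 2 neighbouring windows with at least 90% of segregating sites fixed. Nonassimilated flies had 8 such runs over 25.3 Mb, assimilated flies of the second experiment 38 runs over 54.6 Mb, and control flies 0. On X the runs lay at 10.8 to 11.7 Mb (0.9 Mb) and 11.8 to 13.5 Mb (1.7 Mb), and the 1 window between them had 89.67% of its sites fixed. On 2L they lay at 0.1 to 1.7 Mb (1.6 Mb) and 4.1 to 5.6 Mb (1.5 Mb), and on 2R at 13.4 to 14.9 Mb (1.5 Mb) and 19.0 to 25.2 Mb (6.2 Mb). The last run alone held 51108 segregating sites, of which 50510 (98.83%) were fixed, and 921 protein-coding genes. Arms 3L, 3R and 4 held no run. The number of runs moved with the limits, to 9 at a share of 80%, 11 at a share of 95% and 12 with windows of 50 kb. With fixation taken as no read of the other allele, 5 runs remained, the 2L run at 4.1 to 5.6 Mb was gone and the distal 2L run shrank to 0.9 to 1.7 Mb.

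Over whole arms, most unbroken stretches of fixed sites were short and a few were long. The longest unbroken stretch of fixed segregating sites held 1313 sites over 195.1 kb and lay on 2R at 23.9 to 24.1 Mb. The longest by number of sites held 506 sites over 56.51 kb on 2L, 307 sites over 30.37 kb on X, 269 sites over 29.29 kb on 3L, 56 sites over 10.84 kb on 3R and 9 sites on arm 4. The median stretch was 2 sites on 2L and 2R and 1 site on the other arms.

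The 6 runs fell into 2 kinds by which founder alleles had been fixed. D907 is 1 of the lines that were mixed, and its alternative alleles could be read from the ancestral D907 pool, where 336300 segregating Mix sites had the alternative allele at 0.98 or more and at 0.1 to 0.9 in Mix P0. Other founders share many of these alleles. In the runs on 2L at 0.1 to 1.7 Mb and on 2R at 13.4 to 14.9 Mb and 19.0 to 25.2 Mb, 97.5%, 99.38% and 99.45% of the D907 alleles were fixed and 0% were lost. Their mean frequency went from 61.2%, 65.97% and 62.19% in P0 to 99.78%, 99.96% and 99.96% in assimilated flies. In the runs on X and in the run on 2L at 4.1 to 5.6 Mb the same class of alleles was split: 42.88%, 46.3% and 45.64% were fixed and 56.62%, 52.96% and 53.86% were lost.

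The starting frequencies of the alleles that won differed along with this split. In the runs where the D907 alleles were fixed, the winning allele had a mean P0 frequency of 67.13%, 69.99% and 67.73%, and the lowest 5% of winning alleles lay at or below 41.67%, 43.0% and 42.11%. In the runs on X the mean was 50.48% and 52.04%, and in the run on 2L at 4.1 to 5.6 Mb it was 55.26%. The lowest 5% of winners in these 3 runs lay at or below 18.82%, 19.59% and 20.75%, and 47.61%, 44.74% and 46.64% of their winners had been the rarer allele in P0. The winners were picked on the assimilated reads, so these are descriptions with no test.

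In control and nonassimilated flies the same runs had gone part of the way or elsewhere. The D907 alleles stood at 73.98% in control flies and 88.0% in nonassimilated flies in the distal 2L run, at 67.22% and 81.75% in the run on 2R at 13.4 to 14.9 Mb, and at 54.45% and 70.86% in the run at 19.0 to 25.2 Mb. In this last run 98.78% of the sites were fixed in nonassimilated flies too. Of the sites fixed in assimilated flies there, nonassimilated flies had fixed the same allele at 71.75% and the other allele at 27.73%. In the X runs the D907 alleles stood below P0 in all 3 derived pools, at 50.93% and 52.8% in control flies, 37.68% and 32.7% in nonassimilated flies and 43.32% and 46.78% in assimilated flies, against 61.48% and 62.4% in P0. In the 2L run at 4.1 to 5.6 Mb they stood at 66.68% in P0, 62.12% in control flies, 59.68% in nonassimilated flies and 45.88% in assimilated flies. All of these pools share P0, and nonassimilated flies also descend from the control line.

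**Figure D4:**
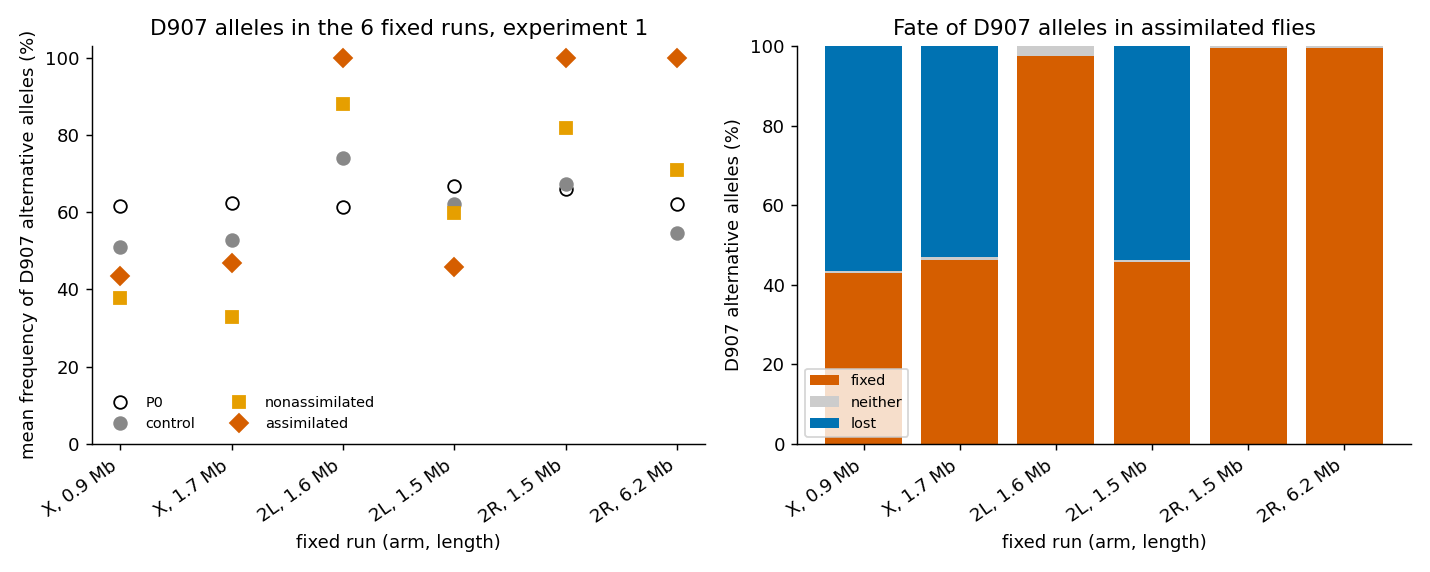
Left, mean frequency in percent of the alternative alleles fixed in D907 in each of the 6 fixed runs, in P0, control, nonassimilated and assimilated pools of experiment 1. Right, percent of the same alleles fixed, lost or neither in assimilated flies, with 97.5% to 99.45% fixed in 3 runs and 52.96% to 56.62% lost in the other 3.

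The runs changed against P0 at 28.71% to 57.51% of their segregating sites and against control flies at 30.32% to 59.2% of the sites in both tables. The highest share against both was in the 2L run at 4.1 to 5.6 Mb, where 6933 sites had changed against P0 and 7034 against control flies, and 0.9847% of segregating sites were fixed in the control pool. In the distal 2L run, 24.56% of the segregating sites were fixed in control flies as well, the highest control share among the runs. Of the 134 windows in the runs, 67 also lay in runs of nonassimilated flies (50% of the assimilated windows and 26.48% of the nonassimilated ones), and 17 lay in runs of assimilated flies of the second experiment (12.69% and 3.114%). Of all windows, 18.88% lay in runs of nonassimilated flies and 41.97% in runs of the second experiment.

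Over whole arms the D907 alleles did not move one way. Their mean frequency went from 59.32% to 63.75% over all arms, with 34.11% fixed and 9.245% lost. Of the 54751 that had started at 0.1 to 0.4, 4.641% were fixed. They went from 62.77% to 80.45% on 2R, from 53.17% to 66.73% on 3L and from 55.88% to 73.81% on 3R, but from 61.34% to 39.08% on X and from 63.54% to 54.65% on 2L. On 3L and 3R 0.06222% and 0.1194% were lost. Of the 1305 windows with at least 10 such alleles, their mean was above P0 in 653 and below it in 652. It was above P0 in 5 of 232 windows on X, 48 of 233 on 2L, 167 of 248 on 2R, 181 of 274 on 3L and 251 of 308 on 3R.

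A small number of alleles went from rare to near fixation. At 617 sites an allele at 0.1 or less in P0 was at 0.9 or more in assimilated flies, and these sites formed 174 clusters when sites within 100 kb were joined, of which 87 were single sites. They numbered 215 on 2L, 135 on X, 40 on 3R, 19 on 3L and 0 on arm 4, and the rest lay on 2R. The mean frequency of the rising allele was 4.457% in P0, 97.33% in assimilated flies and 22.69% in control flies where the control table lists the site. Depth limits many of them: the median swept site had 49 reads in P0 and 32 in assimilated flies, 257 had no read of the rising allele in P0, and 308 had at least 30 reads in both pools. Of the 617 sites, 373 passed the test against P0 and 253 the test against control flies. The sites were chosen on the same reads, so these counts are no separate evidence.

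Such sweeps were rare against the number of low alleles. Of 74311 alleles read in P0 at 0.1 or less, with at least 30 reads in both pools, 243 (0.327%) reached 0.9 in assimilated flies, 1623 (2.184%) reached 0.5, and 61529 (82.8%) were lost. In control flies 0 of 87439 reached 0.9, but 2825 (3.231%) reached 0.5, a higher share than in assimilated flies, and 30721 (35.13%) were lost. In nonassimilated flies 5.169% reached 0.9, and in assimilated flies of the second experiment 16.02% did. By annotation, 265 swept sites lay in introns (42.95%), 228 between genes (36.95%), 74 in noncoding exons (11.99%), 33 in coding sequence (5.35%), 10 in 3′ and 7 in 5′ untranslated regions. Among the 308 swept sites with at least 30 reads the shares were 50.65% in introns, 35.06% between genes, 5.19% in noncoding exons and 5.52% in coding sequence. Of all sites on the arms 46.33% lay in introns, 30.37% between genes, 3.62% in noncoding exons and 12.66% in coding sequence, so the intron share of the swept sites was below or above that of all sites depending on the depth asked for.

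Among the 8 clusters with the most sites, 3 lay on 2L and 3 on X. The cluster at 4027446 to 4187902 on 2L held 16 sites, all with at least 30 reads in both pools, and 6 of them lay in *ed*, which encodes the cell adhesion protein Echinoid, a regulator of EGFR and Hippo signaling. Its rising alleles stood at 6.512% in P0 (SD 3.612 over sites) and 99.74% in assimilated flies. In control flies they stood at 11.11%, over the 8 sites that the control table lists. Some of its sites lie a few bases apart and can share reads, so they are not separate observations. Control means of the clusters cover only the sites that the control table lists. On X, the cluster at 12213419 to 12310103 held 15 sites, all in *Ten-a*, a teneurin of synapse formation, and 10 of them had at least 30 reads in both pools. Its rising alleles went from 7.927% in P0 to 99.73% in assimilated flies. In control flies they stood at 48.04%, over the 13 sites that the control table lists. The cluster at 11764528 to 11950474 held 19 sites, 9 with 30 reads and 1 in *cac*, a calcium channel gene, and went from 5.782% to 99.64%, with control flies at 37.43%. The cluster at 12998490 to 13301300 held 18 sites, 3 with 30 reads and 8 in *Lgr4*, a leucine-rich repeat receptor gene, and went from 3.96% to 99.74%, with control flies at 22.35%. On 2L, the 13 sites at 17010890 to 17102521 lay in no protein-coding gene and went from 3.159% to 93.92%, with control flies at 6.201% over the 4 sites that the control table lists, and 11 of them had 30 reads. The 21 sites at 22236199 to 22687717 had a median of 5 reads in assimilated flies, and 4 had 30 reads in both pools.

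The site with the largest rise in each of these 6 clusters is shown by the reference bases around it, to give its place and sequence context. Where several sites of a cluster had risen equally, as in all but the *Ten-a* cluster, the one with the most reads over both pools was taken. Each stretch is 29 bases of dm6, forward strand, with the site as the capital letter in the middle. The tables count reads of a reference and an alternative allele and do not name the alternative base, and in all 6 the alternative allele rose.
2L site 22615576: tggcctacgcgggaAccccctttctaagg
2L site 4028238: ttaaatgtatgtttTtttttattttttag
2L site 17054418: agcgtattcttatcTccgaatttttttta
X site 11781076: cataataaaataatCtgttttttggccat
X site 12264560: aaggaatactgaacTctgtgtaggcctat
X site 13301300: gattatgggcggaaTgtagctgccttcag
The alternative allele had no read in P0 at any of them, out of 36, 60, 67, 75, 60 and 84 reads in the order shown. In assimilated flies it had 3 of 3, 51 of 51, 29 of 31, 9 of 9, 74 of 74 and 79 of 79 reads. The first site, with 3 reads, did not pass the test against P0. A count of 0 in P0 allows a frequency of up to 8.333%, 5.0%, 4.478%, 4.0%, 5.0% and 3.571%, for counting error only. The site at 12264560 lies in an intron of *Ten-a*, and its alternative allele was at 52.94% in control flies. The site at 13301300 lies in an intron of *CG1764*, and the other 4 lie between genes. The site at 4028238 stands in a run of T bases.

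On 2R, the cluster with the most sites of all lay at 18.7 to 19.0 Mb. Its sites stood just before the longest fixed run, except the last, at 19040655, which lay inside that run. The cluster held 73 sites, all with at least 30 reads in both pools. The rising alleles went from 6.523% in P0 (SD 3.375 over sites) to 92.19% in assimilated flies, with 16.48% in control flies and 2.0% in nonassimilated flies. Of these sites, 28 lay in *sano*, 12 in *Mctp* and 8 in *Hs3st-A*, a heparan sulfate sulfotransferase gene, and 59.36% of the segregating sites in the span were fixed. The 19 sites of the other 2R cluster, with 10 in *Atf6*, had a median of 4 reads in assimilated flies, and 2 had at least 30 reads in both pools.

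Genes were called fixed where at least 90% of at least 10 segregating sites in the gene body and 5 kb on each side were fixed. By this measure 2900 of 23219 annotated genes (12.5%) were fixed in assimilated flies, and 18 of the 106 measured genes of the wing vein and heat stress lists were (17.0%). Neighbouring genes share sites and blocks, so genes are not independent, and no test of the lists was made. The median gene had 36.0% of its sites fixed, and the median of the list genes was 35.88%.

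The EGFR list, whose receptor promotes vein fate, had 4 of 20 genes fixed (12.5% over all annotated genes). *Egfr*, the receptor, had 577 of 587 segregating sites fixed (98.3%), and 253 of them had changed against P0 and 316 against control flies. *S*, which encodes Star, a protein that traffics the EGF ligand, had 378 of 379 sites fixed, *drk*, an adaptor, 111 of 112, and *Sos*, the Ras exchange factor, 87 of 95. In its gene body alone *Sos* had 31 of 36 sites fixed, which is under the limit. *Egfr* lies in the longest run, *drk* in the other 2R run and *S* in the distal 2L run. *Sos* lies outside the runs. The largest mean change in the list was in *kek1*, an EGFR inhibitor (0.6164, against 0.0729 in control flies), where 77 of 84 sites had changed and 86.9% were fixed. *spi*, the main EGF ligand, *Dsor1*, the MEK kinase, and *dos*, an adaptor, changed by 0.4573, 0.4446 and 0.3667 with 50.75%, 62.75% and 45.26% fixed.

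The BMP list had 3 of 19 genes fixed (15.8%, with 12.5% over all annotated genes). *gbb*, a BMP ligand, had 42 of 43 sites fixed, *cv-2*, an extracellular BMP-binding protein of the crossveins, 419 of 423, and *tsg*, another BMP-binding protein, 9 of 10. *gbb* and *cv-2* lie in the longest run, the same block as *Egfr*, and *tsg* lies in a run on X. The gene bodies of *gbb* and *tsg* held 1 segregating site each, so their calls rest on the 5 kb on each side. The mean change at *gbb* was smaller in assimilated than in control flies (0.2216 against 0.3243), and at *cv-2* and *tsg* it was 0.3999 and 0.4793 against 0.1796 and 0.2103. *tkv*, the type I receptor, lay just under the limit with 370 of 414 sites fixed (89.37%), and its sites changed by a mean of 0.5122 in assimilated flies and 0.073 in control flies. In its gene body alone *tkv* passed the limit, with 325 of 361 sites fixed. *sog*, a BMP antagonist, changed by 0.3617 with 49.74% fixed. *dpp*, the chief BMP ligand, had 50.55% of its sites fixed, with 7 sites changed against P0 and 127 against control flies.

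Among the vein and wing selectors, 5 of 16 genes were fixed (31.2%, with 12.5% over all annotated genes). *bs*, the fly serum response factor of intervein cells, had 215 of 216 sites fixed, *px* (plexus), a repressor of vein fate, 646 of 657, *kn*, the transcription factor Knot of the central intervein, 384 of 388, *net*, a vein repressor, 40 of 42, and *emc*, an inhibitor of bHLH factors, 154 of 163. *bs*, *px* and *kn* lie in the 2R runs, and *net* and *emc* lie outside the runs. On 2R, 30.56% of the windows of 100 kb were fixed. The wing genes *ap* and *nub* changed by 0.4971 and 0.4764 with 51.38% and 72.74% fixed, and *sd* changed by 0.3735. The Iroquois genes *ara*, *caup* and *mirr* on 3L stood at the other end, with 3.45%, 1.32% and 7.38% of sites fixed and no site changed against P0 or control flies.

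In the Hedgehog and Wnt list 3 of 15 genes were fixed (12.5% over all annotated genes). *smo*, the Hedgehog signal transducer, had 45 of 45 sites fixed, *arr*, a Wnt co-receptor, 368 of 370, and *dsh*, the Dishevelled adaptor, 23 of 25. *smo* lies in the distal 2L run, *arr* in the 2R run at 13.4 to 14.9 Mb and *dsh* in a run on X. The gene body of *dsh* held 5 segregating sites, all of them fixed. The Hedgehog pathway genes *cos*, *fu* and *ptc* changed more, by 0.5354, 0.4913 and 0.457. *fu* had none of its 74 sites fixed although 53 of them had changed, and control flies had changed there by 0.0667.

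No gene of the Notch list was fixed, out of the 15 that matched the annotation (12.5% over all annotated genes). The listed symbol *Dl*, the Notch ligand Delta, had no match and was not analysed here. *kuz*, the protease that cleaves Notch, had 74.97% of 779 sites fixed and 477 changed, with a mean change of 0.5194 (0.0775 in control flies). *Su(H)*, the transcription factor of the pathway, changed by 0.4328 with 62.5% fixed, *E(spl)m8-HLH*, a target, by 0.4543 with 11.76%, and *Ser*, a ligand, by 0.358 with 37.57%. *N* itself had 28.42% of 285 sites fixed.

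Of the heat stress genes, 3 of 21 were fixed (14.3%, with 12.5% over all annotated genes), and none of these 3 is a heat-inducible Hsp70 or small Hsp gene. *Hsp60A*, a mitochondrial chaperonin, had 38 of 38 sites fixed, *Hsc70-3*, the chaperone of the endoplasmic reticulum, 93 of 96, and *Hsc70-5*, a mitochondrial Hsp70, 85 of 86. All 3 lie in fixed runs, on X and 2R. *Hsc70-3* changed by 0.5881 (0.2326 in control flies), and 72 of its sites had changed against P0. The 6 Hsp70 genes on 3R, near-identical copies between which reads can be misplaced, had 14.55% to 36.84% of their sites fixed, and *Hsp22*, *Hsp23*, *Hsp26* and *Hsp27*, which share a neighbourhood on 3L, 11.93% to 14.18%. The chaperone genes *Hsc70-4* and *DnaJ-1* had 66.67% and 60.0% fixed, with mean changes of 0.3198 and 0.3263.

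Of the 13 candidate genes that the study singled out, 3 were fixed (23.1%, with 12.5% over all annotated genes). The study chose them on data from its selection lines, some in assimilated Mix flies and others, *Cyp9c1* among them, in nonassimilated Mix flies or in D907 lines, so their count is no independent evidence. *CG4250* had 122 of 122 sites fixed, *Cyp9c1*, a cytochrome P450 gene, 92 of 92, and *Vajk1*, a cuticle protein gene, 96 of 97. *CG4250* and *Cyp9c1* lie in the longest run, among its 921 protein-coding genes. The sites of *CG4250* changed by 0.3004 on average (0.2346 in control flies), those of *Cyp9c1* by 0.3352 (0.1975) and those of *Vajk1* by 0.3073 (0.0486). Counted over the gene body alone, only *Vajk1* of these 3 had the 10 segregating sites needed for a call, with 18 of 18 fixed, while *Cyp9c1* had 8 of 8 and *CG4250* 3 of 3 fixed. *Hsp83* had 46 of 83 sites fixed (55.42%) and a mean change of 0.3457, with 27 sites changed against P0 and 43 against control flies.

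The other 9 candidates had at most 31.25% of their sites fixed. *Argk2*, an arginine kinase gene that the study lists as CG5144, had 31.25% fixed, *kibra*, of the Hippo pathway, 29.74%, *Ect3*, a lysosomal galactosidase-like gene, 24.24%, and *SK*, a potassium channel gene, 23.89%. *CG8907* had 12.96%, *tx*, a bHLH gene of wing form, 11.25%, *Pxd*, a peroxidase gene, 7.39%, *CG31262* 6.48%, and *Cad96Ca*, a receptor tyrosine kinase gene, 4.59%. *SK* had 55 of 540 sites changed against P0, *tx* 31 of 240, *Pxd* 22 of 176, *Ect3* 20 of 165 and *CG31262* 0 of 247. The sites of *Cad96Ca* changed by 0.2165 on average (0.1148 in control flies), with 6 of 305 changed against P0 and 12 against control flies. The study reports that a transposable element insertion in *Cad96Ca* rose in frequency in all its Mix selection lines. The read counts used here do not measure that insertion.

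**Figure D5:**
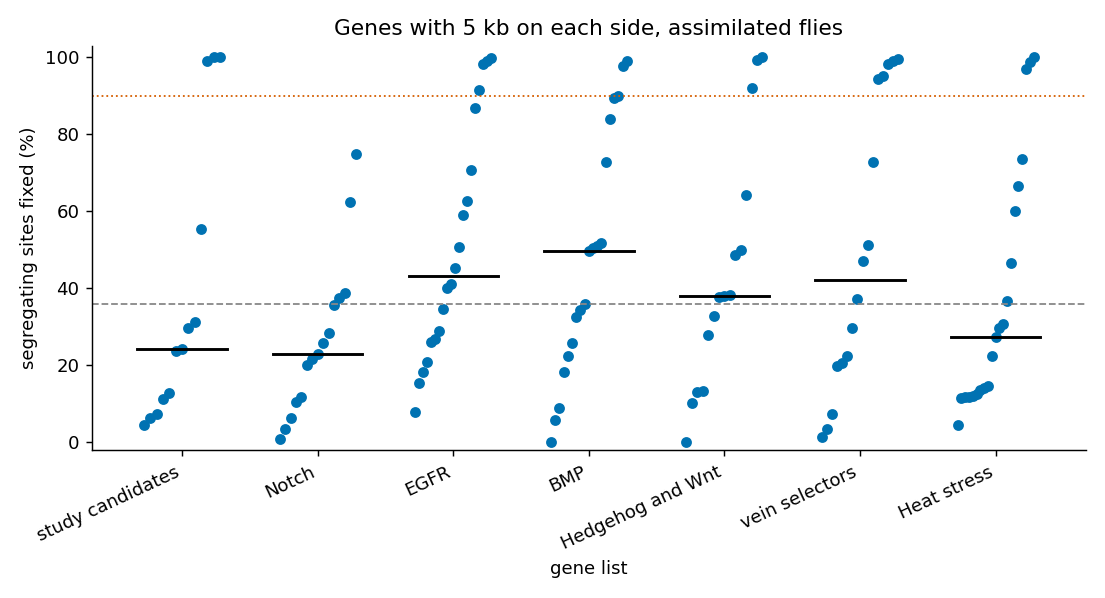
Percent of segregating sites fixed in assimilated flies for each gene of 7 lists, counted over the gene body with 5 kb on each side. Each point is 1 gene, black bars are list medians, the dashed line is the median of all measured genes (36.0%) and the dotted line is the 90% at which a gene was called fixed.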

How the data were processed

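The authors extracted DNA from 100 females per population (200 chromosomes), sequenced it, aligned reads to dm6 with BWA and called variants with GATK, as the methods and the submitters' processing notes say. The authors deposited, per site, the read counts of the reference and the alternative allele in P0 and in a derived pool. Tool versions and site filters are not given in the sources used here. The deposited tables also hold the result of the authors' own Fisher test per site (a p-value, a rank and a q-value), which was not used. Columns were matched to samples by name, and 0 other per-sample columns were left out.

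Allele frequency was the alternative count divided by the sum of both counts. Reads of each site were compared with Fisher's exact test, two-sided, as in the methods, with Bonferroni's correction over the table. The test treats reads as independent, so it covers the sampling of reads and neither the sampling of flies into a pool nor drift between replicate lines. The test was tested on simulated data. Fixed, segregating, window, run, swept and gene calls are descriptions with the limits given beside them: minor allele frequency 0.1, fixation at 0.02 and 0.98, windows of 100 kb with 20 sites, runs of 2 windows at 90%, genes with 5 kb flanks and 10 sites.

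Genes came from the Ensembl annotation of the same assembly, reference bases from RefSeq's dm6 genome. Of the list symbols, 3 were not matched, and 1 of these is a second name of a listed gene. Named were all study candidates, list genes called fixed and the 4 per list with the largest mean change, the 2 longest runs and 2 most changed windows per arm, and the 8 largest swept clusters. The Iroquois, *dpp*, *N*, Hsp70 and small Hsp genes were named after their values were seen. The members and lists were chosen with earlier results of these data known. Python 3.11.15 was used with SciPy 1.17.1, Numba 0.67.0, Matplotlib 3.10.9, pandas 2.3.3 and NumPy 2.4.6. The alternatives tried changed the threshold, the correction, the depth minimum, the counts behind the test, the limits for segregating, fixed, swept and run, and the span of a gene.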

Additional observations from a re-analysis of the deposited data

Results flagged for a closer look

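In 5 of the 6 fixed runs the alternative alleles fixed in D907 moved in opposite directions in the assimilated pools of the 2 experiments, each measured from its own P0 over the sites that both tables list. The difference was not tested, since each experiment has 1 assimilated pool. On X at 10.8 to 11.7 Mb, the mean change was -18.5 percentage points in experiment 1 and 23.75 in experiment 2 over 1173 alleles. On X at 11.8 to 13.5 Mb it was -16.08 and 33.49 over 3135 alleles, and on 2L at 4.1 to 5.6 Mb -20.12 and 15.94 over 3913. On 2R at 13.4 to 14.9 Mb the signs were the other way, 31.74 and -24.74 over 5250 alleles, and at 19.0 to 25.2 Mb 36.26 and -3.761 over 21534. The distal 2L run went one way in both, by 38.54 and 25.51 over 6569 alleles. The starting points differed too: in the 2R run at 13.4 to 14.9 Mb these alleles stood at 68.22% in the first P0 and 83.42% in the second.

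Sites outside the 6 arms enter the results above that take the whole table, but none given by arm, window, run, cluster or gene. Among them, 133 of 18328 (0.7257%) had changed in assimilated flies against P0. In control flies 98 of 17660 (0.5549%) had.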

How the results depend on the processing

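The count of changed sites against P0 went from 174593 to 109954 at an adjusted p below 1e-08, to 82388 with counts scaled to the effective number for 200 chromosomes, and to 803091 with the Benjamini-Hochberg adjustment at 0.05. With at least 30 reads in both pools it was 174660, over fewer sites and so with a smaller correction. Averaging the adjusted p in bins of 10 kb left 3 of 14437 bins below 1e-05, where the mean includes the sites of a bin that did not change. Against control flies the count was 210069, and 121255 with effective counts, 147564 at 1e-08 and 209985 with 30 reads. The authors' deposited q-value was not run as an alternative, because it is a result of the study. The share of segregating sites fixed, 37.98%, was 36.91% with no read of the other allele, 40.67% with limits of 0.05 and 0.95, 40.63% and 30.77% at a P0 minor allele frequency of at least 0.05 and 0.2, and 37.85% with 30 reads. 2R and then 2L led the arms under all of these. The mean change, 0.275, was 0.296 and 0.2646 at a minor allele frequency of at least 0.2 and 0.05, and 0.2746 with 30 reads. The runs covered 13.4 Mb, and 15.6 Mb at a share of 80%, 10.6 Mb at 95%, 10.9 Mb with no read of the other allele, 13.5 Mb with windows of 50 kb and 13.4 Mb with at least 50 sites in a window. With no read of the other allele, 2L had 1 run of 0.8 Mb in place of 2 over 3.1 Mb. At a share of 80% a run of 0.3 Mb appeared on 3R, and 3L and arm 4 had none under any of these settings. Swept alleles numbered 617, but 301 and 6288 with a P0 limit of 0.05 and 0.2, 371 at 0.98 or more in assimilated flies, and 308 with 30 reads, so their number rests on the limits and on depth. Of the D907 alleles 34.11% were fixed, 33.21% with no reference read, and 4.641% of the 54751 that had started at 0.1 to 0.4. Of the list genes 18 were fixed, and 15 of 85 by the gene body alone (16.3% of all genes) and 21 at a share of 80% (16.5% of all genes). Of the study's candidates, 1 was called fixed by the gene body alone, where the other 2 had too few sites.

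No paired analysis was possible because each population of experiment 1 was sequenced as 1 pool, and the pools of experiment 2, which has a P0 of its own, were only set beside it. Founder haplotypes could not be followed one by one, because the lines D208, D437 and D820 were not analysed here.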
